A study of Mus musculus with 4 samples.

Results

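The 10 genes described here make and recycle the small redox carriers of the cell. They were chosen by symbol for their roles in glutathione synthesis, peroxide removal and the thioredoxin system, and all 10 were found among the 50600 genes of each table. The data are RNA sequencing counts from mouse T helper 17 (Th17) cells, the CD4 T cells that secrete interleukin 17, grown as primary cells of strain C57BL/6NJ. The 4 libraries form 1 group, biological replicates 1 to 4, with no treated or control arm. The agents that drove differentiation are not named in the labels, which cite a CD4 T cell protocol only. Age and sex were not recorded, and 72 hr stands in the file headers as the time. The assay is called total RNA sequencing, while the title of the linked library protocol names poly(A) RNA. All 4 samples share 1 donor identifier, and nothing says whether separate animals were used, so p-values measure only the spread between these samples, which may be technical.

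Glutathione is a tripeptide whose thiol group takes up oxidising equivalents. Glutamate-cysteine ligase, a catalytic subunit (Gclc) with a modifier subunit (Gclm), joins glutamate to cysteine, glutathione synthetase (Gss) adds glycine, and glutathione reductase (Gsr) returns the oxidised form to the reduced one with NADPH. Thioredoxin (Txn1) is a small protein with a reactive pair of cysteines that is kept reduced by thioredoxin reductase (Txnrd1) and in turn reduces peroxiredoxins such as Prdx1. Sulfiredoxin (Srxn1) repairs peroxiredoxins whose cysteine has been over-oxidised by peroxide. Activated T cells are known to depend on glutathione, and several of these genes are textbook targets of the transcription factor NRF2, which binds antioxidant response elements.

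Replicate 2 stood apart from the other libraries. Total counts were 33123029 to 37746767 per library. A chi-square comparison of counts gave 44.6 to 49.4 per degree of freedom for the pairs with replicate 2 and 4.44 to 6.61 among replicates 1, 3 and 4, so every pair differed by more than sampling noise and none was merged. All 8 genes fixed to mark T cells and the Th17 state were at 1 TPM or more (TPM, counts divided by gene length and scaled to the same total in each library), with means of 25.7 to 2216 TPM. Their summed level was 2619 TPM in replicate 2 and 6643 to 7289 TPM in the other 3 libraries, and 5 of the 8 were lower in replicate 2. These were the Th17 genes Il17a, Il17f, Ccr6, Il23r and Rora, with log2 changes of −2.12, −2.20, −2.14, −0.62 and −0.63. The T cell genes Cd3e, Cd4 and Trac had changes of 0.07, 0.01 and −0.09 with no call. Genes marking B cells, myeloid cells, natural killer cells, and red cells and platelets had means of at most 1.23, 7.96, 0.0202 and 0.182 TPM. Their summed levels in replicate 2 were 2.16, 11.2, 0 and 0.784 TPM, against 1.75 to 2.11, 11.7 to 12.99, 0 to 0.113 and 0.109 to 0.523 TPM in the other libraries. The myeloid genes Lyz2 and S100a8, the NK gene Ncr1 and the globin genes Hbb-bs and Hbb-bt had 0 counts in every library. Other myeloid genes were detected. Adgre1, with a mean of 7.96 TPM, was lower in replicate 2 at −0.54 (log2). Cd14, with a mean of 3.86 TPM, had a change of 0.65 with no call.

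Srxn1 had the largest change of the 10 genes. In replicate 2 it was 4.08 times lower than in the other 3 libraries, while Txn1, Txnrd1 and Prdx1 had changes of 0.08 to 0.13 on the log2 scale with no call. The stretch upstream of Srxn1 is shown with that of Prdx1, which encodes a substrate of sulfiredoxin and had no call, and that of Gss, which was higher in replicate 2. Each is read 5′ to 3′ on the gene's strand from RefSeq on GRCm38.p6, the mm10 assembly, and stops before the first base of the gene in the deposited tables. Capitals mark matches to the antioxidant response element core (ARE, TGACNNNGC or TGAGNNNGC) or to the AP-1 motif (TGANTCA), searched on both strands.
Srxn1, chr2:152105274-152105515, plus strand: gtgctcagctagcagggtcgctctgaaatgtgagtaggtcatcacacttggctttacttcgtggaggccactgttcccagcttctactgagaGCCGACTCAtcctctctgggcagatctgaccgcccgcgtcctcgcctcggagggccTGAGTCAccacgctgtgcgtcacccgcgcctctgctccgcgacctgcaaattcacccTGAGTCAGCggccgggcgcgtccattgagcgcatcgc
Prdx1, chr4:116685349-116685543, plus strand: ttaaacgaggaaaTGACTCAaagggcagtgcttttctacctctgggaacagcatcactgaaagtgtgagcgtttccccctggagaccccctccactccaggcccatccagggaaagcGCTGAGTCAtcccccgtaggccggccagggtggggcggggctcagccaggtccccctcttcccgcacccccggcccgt
Gss, chr2:155592811-155593060, minus strand: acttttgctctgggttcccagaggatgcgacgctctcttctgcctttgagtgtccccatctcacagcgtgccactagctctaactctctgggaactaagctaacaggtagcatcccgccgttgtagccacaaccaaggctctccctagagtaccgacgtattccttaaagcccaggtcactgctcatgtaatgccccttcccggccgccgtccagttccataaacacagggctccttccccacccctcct

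Counted from the RefSeq start site, the AP-1 motif began 102 and 45 bases before Srxn1 and 237 and 131 bases before Prdx1. The ARE core began 158 and 45 bases before Srxn1 and 133 bases before Prdx1. At 45 bases before Srxn1 and at 133 bases before Prdx1 the ARE and AP-1 matches overlap. RefSeq windows of 250 bases were at hand for 8 of the 10 genes, 13 windows in all because Gpx4 and Txnrd1 have several starts. Gclc and Gsr had no window and were not searched. ARE cores were found for 4 of these genes (Srxn1, Prdx1, Gclm and Txnrd1) and the AP-1 motif for Srxn1 and Prdx1. Counted by window, 4 of the 13 (30.8%) held an ARE core and 2 (15.4%) the AP-1 motif. Over all 32851 windows of the same length, 23.0% held an ARE core and 6.75% the AP-1 motif. A match describes letters only.

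Srxn1 (ENSMUSG00000032802.8, chromosome 2, bases 152105516 to 152111376 on mm10, protein-coding) had 15.8, 3.00, 12.5 and 10.2 TPM in replicates 1, 2, 3 and 4, from 441, 97, 369 and 322 counts. Replicate 2 was the lowest library, and the others averaged 12.8 ± 2.81 TPM (SD, n = 3). In edgeR's quasi-likelihood test Srxn1 fell by 2.03 on the log2 scale in replicate 2, with an SE of 0.24 and a Benjamini-Hochberg adjusted p of 4.52e-05 (95% interval −2.55 to −1.51). Each such test set 1 library against 3. It compares libraries, not conditions, and takes the spread of the single library to equal that of the other 3. Srxn1 also varied among the other 3 libraries, where its SD was 0.32 on the log2 scale. This was larger than for 97.2% of the 10226 genes with a mean of at least 5 TPM, a rank not matched for counts. Without replicate 2, Srxn1 was higher in replicate 1 than in replicates 3 and 4 by 0.49 ± 0.13 (log2 ± SE, edgeR adjusted p = 0.0487). In that comparison 0.608% of all genes were called, and Srxn1 was the only 1 of the 10 genes.

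No other gene of the thioredoxin system among the 10 was called in replicate 2. Txn1 (chromosome 4, bases 57943373 to 57956411), the thioredoxin gene, was the most abundant of the 10 at 1276, 1279, 1275 and 1233 TPM. Replicates 1 to 3 were nearly equal and replicate 4 was slightly lower. The change in replicate 2 was 0.08 (log2, 95% interval −0.02 to 0.18) with no call. Prdx1 (chromosome 4, bases 116685544 to 116700822), a peroxiredoxin gene, had 313, 331, 325 and 318 TPM, and its change was 0.12 (interval 0.02 to 0.22) with no call (edgeR adjusted p = 0.0969). Txnrd1 (chromosome 10, bases 82833951 to 82897712), the cytosolic reductase, had 178, 180, 169 and 166 TPM. Its change was 0.13 (interval 0.02 to 0.24, edgeR adjusted p = 0.0873), and it was called higher with no filter on counts (adjusted p = 0.0431) and without replicate 1 (adjusted p = 0.0059). None of these intervals overlaps that of Srxn1, and a small rise lies within each.

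The peroxidase genes were higher in replicate 2. Gpx1 and Gpx4 encode glutathione peroxidases that carry selenocysteine in their active site, as Txnrd1 does. Gpx1 reduces soluble peroxides, and Gpx4 reduces lipid peroxides in membranes and guards against ferroptosis. Gpx1 (chromosome 9, bases 108338903 to 108340343) had 732, 809, 702 and 770 TPM, highest in replicate 2. It rose by 0.20 ± 0.05 in replicate 2 (log2 ± SE, edgeR adjusted p = 0.0151). Gpx4 (chromosome 10, bases 80047166 to 80056439) had 227, 277, 226 and 244 TPM, with replicate 2 again the highest. It rose by 0.32 ± 0.05 (log2 ± SE, edgeR adjusted p = 0.000456). A processed pseudogene named Gpx4-ps2 held 51 to 75 counts a library and Txn-ps1 held 2 to 10, against 3869 to 5465 for Gpx4 and 13282 to 15394 for Txn1, and how reads shared by such copies were split was not tested. Eid3 lies within Txnrd1 on the same strand with 11 to 31 counts, and Gm6061 within Gclm with 2 to 7.

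Among the glutathione synthesis genes Gss was called higher, and Gclc and Gclm had no call. Gss (chromosome 2, bases 155563181 to 155592810) had 21.2, 28.7, 23.0 and 21.5 TPM. Replicate 2 was the highest, and the other 3 averaged 21.9 ± 0.982 TPM (SD, n = 3). Gss rose by 0.45 ± 0.08 (log2 ± SE, edgeR adjusted p = 0.00142). Gclc (chromosome 9, bases 77754535 to 77794485) had 31.3, 27.8, 31.9 and 32.0 TPM, lowest in replicate 2. Its change was −0.13 (log2, 95% interval −0.32 to 0.06) with no call (edgeR adjusted p = 0.345). Gclm (chromosome 3, bases 122245557 to 122270732) had 13.5, 11.8, 13.1 and 11.9 TPM, with replicates 2 and 4 nearly equal, and a change of −0.05 (interval −0.28 to 0.18) with no call. Gsr (chromosome 8, bases 33652523 to 33698163), the reductase gene, had 101, 90.5, 102 and 96.3 TPM, lowest in replicate 2. Its change was −0.08 (interval −0.20 to 0.04) with no call.

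**Figure D1:**
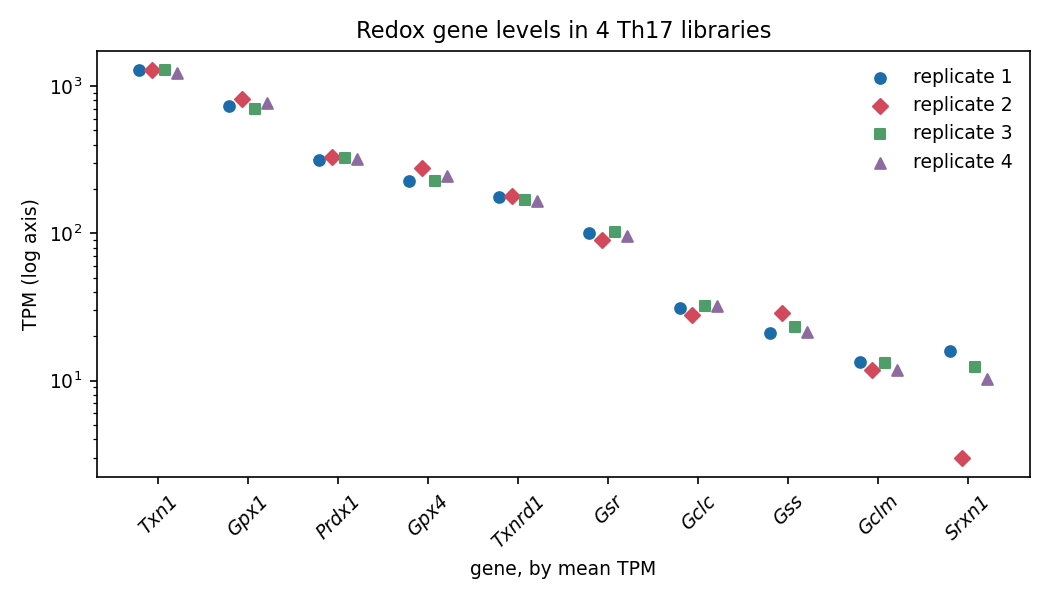
Level of each of the 10 genes in TPM (log axis) in each of the 4 libraries, 1 point per library, ordered by mean. The 4 points of Txn1 lie between 1233 and 1279 TPM, while Srxn1 ranges from 3.00 TPM in replicate 2 to 15.8 TPM in replicate 1.

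In the count of calls, 4 of the 10 genes differed in replicate 2, with Gss, Gpx1 and Gpx4 higher and Srxn1 lower. Of all 17337 genes tested 21.1% were called, 10.9% higher and 10.2% lower, and of the 10226 genes with a mean of at least 5 TPM, which all 10 genes exceeded, 29.3% were called. The median change of the 10 genes was 0.10 and that of all genes tested −0.01 on the log2 scale. Without regard to sign these medians were 0.13 and 0.24, the latter including genes below 5 TPM. Of the genes that mark the Th17 state, replicate 2 also had lower Il17a, Il17f and Ccr6 (log2 −2.12 to −2.20), and less markedly lower Il23r and Rora (−0.62 and −0.63). Their part in the redox result was not tested, and in bulk RNA fewer cells of a type and less RNA per cell cannot be told apart. Comparing each of replicates 1, 3 and 4 with its other 3 libraries, edgeR called 0 of the 10 genes and 0% of all genes. At an unadjusted p under 0.05 there were 0 of the 10 genes in each, and 180, 272 and 146 of all genes. DESeq2 called 0 of the 10 and 2, 15 and 3 of all genes. Replicate 2 is among the 3 libraries in each of these comparisons.

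**Figure D2:**
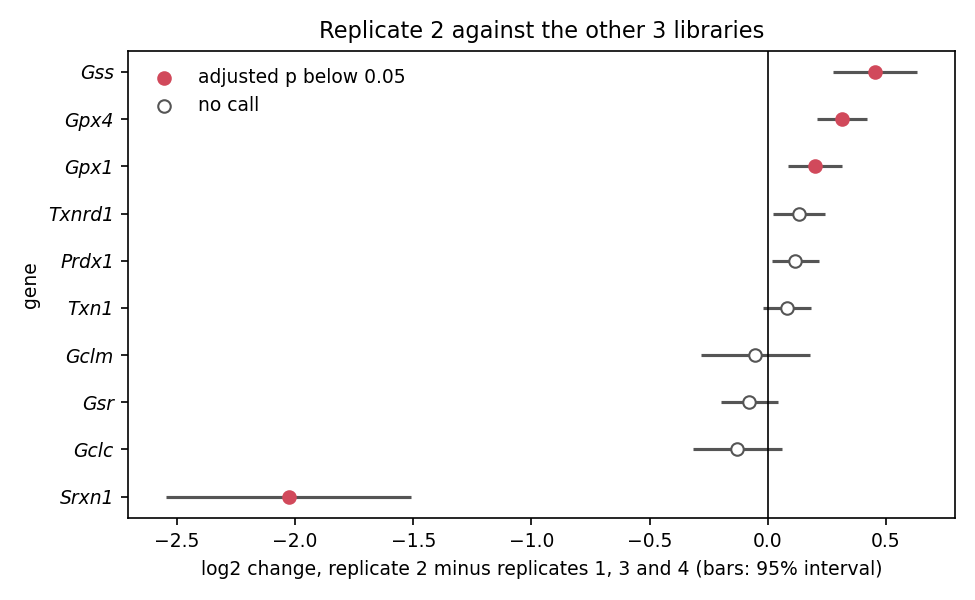
Log2 change of each of the 10 genes in replicate 2 against replicates 1, 3 and 4 (horizontal axis), with the 95% interval as a bar and filled points for genes called by edgeR. Srxn1 lies at −2.03, and the other 9 genes lie between −0.13 and 0.45.

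The order of the levels was Txn1, Gpx1, Prdx1, Gpx4, Txnrd1, Gsr, Gclc, Gss, Gclm and Srxn1, from 1266 ± 22.2 TPM for Txn1 down to 12.6 ± 0.833 TPM for Gclm and 10.4 ± 5.42 TPM for Srxn1 (mean ± SD, n = 4). Gclc overlapped Gss over the libraries, and Gclm overlapped Srxn1. All other neighbours in this order were separate in every library. Txn1 was higher than 99.2% of the 10226 genes with a mean of at least 5 TPM, and Srxn1 higher than 14.6% of them. Among these genes the median SD was 0.10 on the log2 scale. Txn1 and Prdx1, with SDs of 0.03 and 0.04, varied less than most, below all but 3.27% and 8.24% of them. Without replicate 2 these shares were 19.1% for Txn1 and 16.5% for Prdx1, and Gclc, which had 47.3% of genes below it over the 4 libraries, had 8.19%. Srxn1, at 1.07, varied more than 99.1% of them over the 4 libraries. None of these ranks was matched for counts, which were 13282 to 15394 for Txn1, 9434 to 11539 for Prdx1 and 97 to 441 for Srxn1. The levels rest on the summed exon length in the deposited tables. With the longest transcript of each gene in its place, Gss stood above Gclc and Txnrd1 was 1.56 times higher (269 TPM). With the median transcript length Prdx1 came first at 479 TPM and Txn1 fell behind Gpx1, at 401 against 408 TPM, while Gss, Gclm and Srxn1 stood higher, at 49.4, 28.6 and 20.7 TPM.

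Ratios of genes with linked roles were taken within each library from TPM. Gclm stood below Gclc in 4 of 4 libraries, at 0.430, 0.426, 0.411 and 0.371 of its level in replicates 1 to 4. This ratio of modifier to catalytic subunit was nearly equal in replicates 1 and 2. Gsr stood at 0.566, 0.504, 0.604 and 0.579 of Txnrd1, and Gpx4 at 0.309, 0.342, 0.322 and 0.316 of Gpx1. The carrier Txn1 stood 7.19, 7.12, 7.53 and 7.41 times above its reductase Txnrd1. Prdx1 stood 19.8, 110, 26.1 and 31.2 times above Srxn1, so that the ratio in replicate 2 lay far outside that of the other libraries. For each of these 5 pairs the direction held in 4 of 4 libraries, with an exact two-sided sign-flip p of 0.13, the smallest that 4 libraries allow, and an adjusted p of 0.15 over the 6 pairs. Gss stood at 0.676, 1.03, 0.721 and 0.670 of Gclc, lower in 3 of 4 libraries (exact p = 0.25). The size of the ratios depended on the length used, with the direction kept for the 5 pairs other than Gss over Gclc. The mean log2 ratio of Txn1 over Txnrd1 was 2.87, against 1.90 with the longest transcript, 1.54 with the median transcript length and 0.12 with counts not corrected for length. That of Gsr over Txnrd1 was −0.83, against −1.76, −0.23 and −2.19 in the same order. That of Gclm over Gclc was −1.29, against −1.26, −0.67 and −0.55. Gpx4 and Gpx1 had means of 243 and 753 TPM. These became 335 and 805 TPM with the longest transcript, and 181 and 408 TPM with the median transcript length. Prdx1 and Srxn1 had means of 322 and 10.4 TPM. These became 339 and 8.26 TPM with the longest transcript, and 479 and 20.7 TPM with the median transcript length. The direction of Gss over Gclc turned with counts not corrected for length (mean log2 ratio 0.26 in place of −0.39) and with either transcript length.

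**Figure D3:**
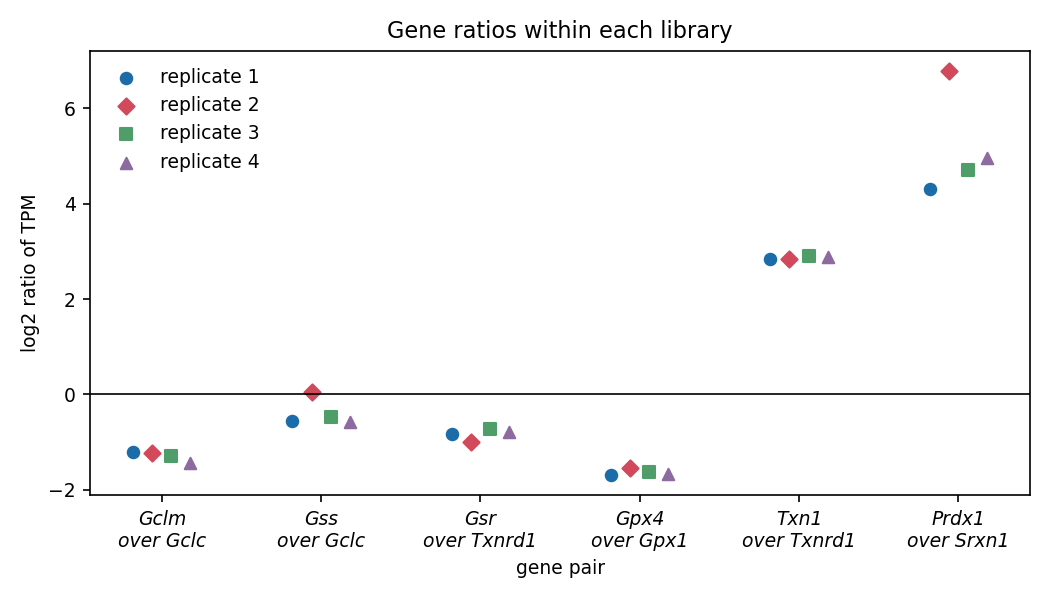
Log2 ratio of TPM of 6 gene pairs within each library, 1 point per library, with a line at equal levels. The ratio of Prdx1 to Srxn1 is 6.78 in replicate 2 and 4.31 to 4.96 in the others, and the ratio of Txn1 to Txnrd1 spans 2.83 to 2.91.

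Of 103 other redox genes in 7 lists, 100 were tested in replicate 2. In edgeR's quasi-likelihood test 19 were higher, 15 lower and 66 had no call. This is 34.0% called against 21.1% of all genes and 29.3% of those with a mean of at least 5 TPM. The 34.0% also covers listed genes below 5 TPM, so it and the 29.3% are shares of unlike sets. By list, in the order given below, the shares called were 35.7%, 40%, 36.8%, 53.3%, 0%, 28.6% and 21.1%. These stand beside the same 21.1% and 29.3%, and each rests on only 4 to 19 genes tested. The median change of the genes tested was 0.03 on the log2 scale, with list medians from −0.10 to 0.14. Differences between lists were not tested.

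Of 14 genes for the supply, breakdown, export and glyoxalase use of glutathione, 4 were lower, 1 higher and 9 without a call (median −0.10). Cth, the enzyme that releases cysteine from cystathionine, had 144, 55.3, 142 and 134 TPM in replicates 1 to 4. It fell by 1.28 on the log2 scale with an SE of 0.06 (edgeR adjusted p = 5.52e-09). Cbs, the enzyme before it in that pathway, moved the other way, at 6.19, 11.02, 6.63 and 6.97 TPM and 0.80 ± 0.13 (log2 ± SE). Slc1a4, a transporter of neutral amino acids, was lower at −0.49. Slc3a2, the shared heavy chain of several amino acid transporters, was lower at −0.27, with a mean of 213 TPM. Its cystine-importing partner Slc7a11, singled out after its values were seen, had only 1.11 TPM and a change of 0.03 with no call. The fourth lower gene, Abcc1, an exporter of glutathione conjugates named after its values were seen, had a change of −0.30. Glo1, which detoxifies methylglyoxal with glutathione, had 96.9 TPM and a change of 0.07 with no call.

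Enzymes that use glutathione were higher in 5 and lower in 1 of 15 tested, with 9 without a call (median 0.07). Gpx3, the secreted glutathione peroxidase, was higher, at 5.23, 15.0, 4.09 and 4.43 TPM, with replicate 2 far above the others and a change of 1.77 ± 0.18 (log2 ± SE, edgeR adjusted p = 1.1e-05). The transferase genes Gsto1 and Gstp1 were higher at 0.58 and 0.37, and the glutaredoxin genes Glrx5 and Glrx3, which take part in iron-sulfur cluster handling, at 0.29 and 0.23. Gstm5 was lower at −0.76, a call lost in DESeq2 (adjusted p = 0.128) and without replicate 1 (edgeR adjusted p = 0.0619). Gpx2 and Mgst1 had 0 counts in every library, and Gsta4 had too few counts to be tested.

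Partners of the thioredoxin system had 6 higher, 1 lower and 12 without a call of 19 (median 0.14). The cytosolic peroxiredoxin gene Prdx2, at 529 ± 36.5 TPM (SD, n = 4), was higher at 0.25, as was Txndc17, a thioredoxin-like protein gene, at 0.25. Prdx3, the mitochondrial peroxiredoxin gene, had 422 ± 6.68 TPM and a change of 0.09 with no call. The stress-induced sestrin genes Sesn2 and Sesn3 were higher at 0.42 and 0.38. Txnrd2, the mitochondrial reductase, was lower at −0.27 with an edgeR adjusted p of 0.0435, a call lost in DESeq2 (adjusted p = 0.0573).

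NADPH is consumed by both reductases. Of 15 genes listed for its supply and for the pathways around it, 3 were higher, 5 lower and 7 without a call. Idh1, the cytosolic NADP-linked isocitrate dehydrogenase, had 80.7, 40.1, 80.1 and 88.1 TPM. It fell by 0.99 with an SE of 0.08 in replicate 2 (edgeR adjusted p = 1.05e-06), whereas its mitochondrial counterpart Idh2 rose by 0.45. Me2, a mitochondrial malic enzyme, was lower at −0.55. The pentose phosphate genes Tkt and Taldo1 and the folate enzyme gene Mthfd2, the most abundant of the list at 317, 242 and 260 TPM, had changes of −0.01, 0.12 and −0.03 with no call. Pgd, a pentose phosphate enzyme gene that itself yields NADPH and was named after its values were seen, was lower at −0.23 (edgeR adjusted p = 0.00319). Me1, also named after its values were seen, was lower at −2.76 (edgeR adjusted p = 0.0328). It had only 3 counts in replicate 2 and a mean of 0.39 TPM. With a filter of 100 summed counts the lower calls of this list went from 5 to 4.

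None of Sod1, Sod2, Sod3 and Cat was called. Sod1, the cytosolic superoxide dismutase gene, had 834 ± 32.7 TPM, Sod2 88.3 ± 3.18 TPM and catalase 76.6 ± 4.35 TPM (SD, n = 4), with changes of −0.01, 0.13 and −0.09. Sod2 was called higher without replicate 3 (0.14, edgeR adjusted p = 0.0417).

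Among NRF2 regulators and targets 2 were higher, 2 lower and 10 without a call of 14 (median −0.01). Nfe2l2, which encodes NRF2, had 44.5, 36.7, 45.3 and 44.7 TPM and was lower at −0.23 ± 0.08 (log2 ± SE, edgeR adjusted p = 0.0477). That call was lost in DESeq2 (adjusted p = 0.0658), with a filter of 100 summed counts (adjusted p = 0.0508) and without replicate 3 (adjusted p = 0.0571). The small MAF factors are partners of NRF2 on DNA. Of these, Maff had 19.2, 7.67, 20.5 and 17.1 TPM and fell by 1.24 with an SE of 0.15 (edgeR adjusted p = 5.74e-05), and Mafk rose by 0.34. Mafg, named after its values were seen, had 52.9 TPM and a change of 0.03 with no call. The ferritin light chain gene Ftl1 rose by 0.22 at 616 TPM, while the heavy chain gene Fth1, at 1173 ± 10.5 TPM (SD, n = 4), had a change of 0.04 and Sqstm1 one of −0.12, both with no call. Sqstm1 was called lower with scaling by total counts alone (−0.14) and with a filter of 100 summed counts (−0.12).

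Of 19 genes for selenoprotein synthesis and other selenoproteins, 2 were higher, 2 lower and 15 without a call (median 0.01). Sephs2, which makes the selenium donor, and Trnau1ap, which binds the selenocysteine tRNA, were higher at 0.27 and 0.34. Selenos, a selenoprotein of the endoplasmic reticulum, was lower at −0.31 ± 0.04 (log2 ± SE). Selenow and Selenoh, the most abundant along with Selenos, had 654 and 242 TPM and changes of −0.07 and 0.08 with no call.

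**Figure D4:**
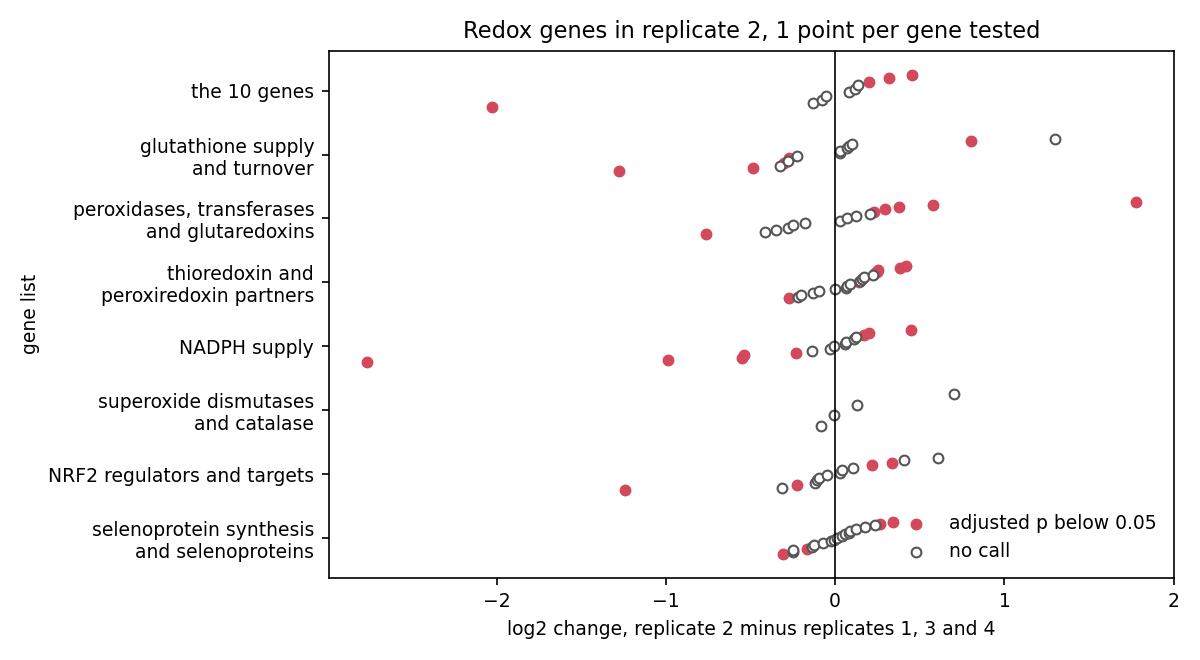
Log2 change in replicate 2 against replicates 1, 3 and 4 (horizontal axis) of the 10 genes and of the genes tested in 7 other redox lists, 1 point per gene, filled where edgeR called it. Srxn1 at −2.03 lies apart from the other 9 genes of its row, and Cth, Idh1 and Maff lie between −0.99 and −1.28 in theirs. The lowest called point is Me1 at −2.76, from 3 counts in replicate 2 and a mean of 0.39 TPM.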

How the data were processed

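RNA was sequenced from 4 libraries of mouse Th17 cells. The deposited values are raw counts of read pairs per gene, made with featureCounts 1.4.6-p4 (strand option 2) and GENCODE vM13 per the file headers, 1 table a library. The Length column of the deposited tables is the summed exon length. The build is mm10 per the labels, and the aligner's version is not given in the sources used here. Symbols came from GENCODE vM21 (50376 identifiers matched, 224 did not).

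TPM was computed as count over Length. Each replicate was compared with the other 3 by edgeR 4.0.16 (quasi-likelihood, TMM, genes with at least 10 summed counts), with Benjamini-Hochberg adjustment over all 17337 genes tested and a threshold of 0.05. An SE is the size of a log2 change divided by the root of its F statistic. On the TPM scale the median gene of replicate 2 lay at −0.05 (log2), so TPM ratios run slightly below the fitted changes. Alternatives were DESeq2 1.42.0, other scalings and filters, and leaving out each replicate. A robust prior and the transcript lengths were added after seeing the data. The text names the 10 genes and, of each other list, the 3 highest by mean TPM and the 3 largest called changes at 5 TPM or more. Members and lists were chosen with earlier results of these data known.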

Additional observations from a re-analysis of the deposited data

Results flagged for a closer look

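A single library stood away from the other 3 in 13 of 53 sets of 4 values checked, by the share of the range taken up by its gap to the nearest other library (the limit is Dixon's 95% critical value), where chance marks about 1 in 20. Replicate 2 was that library in 12 of them. Of the 53 sets, 18 were genes named for a called change in replicate 2, and these make up 9 of the 13, so neither count can be set against chance. Replicate 2 was low for Slc3a2 (share 0.889), Cth (0.884), Idh1 (0.834), Me2 (0.9365), Nfe2l2 (0.914) and Selenos (0.936), and high for Cbs (0.838), Gpx3 (0.896), Gsto1 (0.872), Prdx2 (0.8395), Mafk (0.867) and the log2 ratio of Gss over Gclc (0.8294). Replicate 4 was low for Txn1 (0.909), at 1233 TPM against 1275 to 1279 TPM. The fall of Srxn1 did not pass this limit, and its other 3 libraries ranged from 10.2 to 15.8 TPM.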

How the results depend on the processing

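Srxn1 remained lower in replicate 2 under all 9 alternatives run (log2 −2.17 to −1.85), and Gss, Gpx1 and Gpx4 remained higher, with edgeR or DESeq2 adjusted p-values of at most 0.0331. Of the 10 genes, those called in replicate 1 ranged from 0 to 1 with 1 library left out, the 1 being Srxn1 without replicate 2. Over all genes, replicates 1, 3 and 4 had 0 calls, against 2, 15 and 3 in DESeq2 and ranges of 0 to 101, 0 to 102 and 0 to 38 with 1 library left out, each highest without replicate 2. Lower calls in replicate 2 among glutathione users went from 1 to 0 in DESeq2 and spanned 0 to 1 with a library left out (0 without replicate 1). Among thioredoxin partners they went from 1 to 0 in DESeq2, 2 with total counts only and 2 with no filter on counts (1 to 2 with a library left out, 2 without replicate 1 and without replicate 4). In DESeq2 lower calls went from 5 to 3 for NADPH supply and from 2 to 1 for NRF2 genes (1 to 2 with a library left out, 1 without replicate 3). Lower selenoprotein calls spanned 2 to 4 (4 without replicate 1), and higher dismutase and catalase calls 0 to 1 (1 without replicate 3). With a library left out the change of Tkt ranged from −0.027 to 0.0063 and that of Sod1 from −0.033 to 0.024, both positive without replicate 3. The causes were not tested. The log2 ratio of Gss over Gclc turned to 0.26 with counts without length correction, 0.11 with median transcript length and 0.33 with longest transcript length. No paired analysis was possible because there is 1 group. Of the 10 genes Srxn1 had the fewest counts in replicate 2, 97, and some genes of the other lists had fewer, such as Ggt1 with 9 and Me1 with 3.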
